A study of Mus musculus with 9 samples.

Results

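In the mouse alveolar macrophage line MH-S, 142 of the 14771 genes in the deposited table had lower mRNA levels after lipopolysaccharide (LPS) in every one of 3 same-numbered pairs of libraries. The genes were chosen by their measured values. Levels are CPM, the reads of a gene divided by the library's total count and scaled to a common size. A gene was taken when its mean over 9 libraries was at least 5 CPM and its LPS level was at most 0.55 of the untreated (CON) level within each of replicate numbers 1, 2 and 3. Of the 9693 genes at that mean level, 191 passed the ratio, and 49 of these were set aside by name, 35 of them numbered zinc finger (Zfp) genes and the others Slc, Klf, Dusp, Trim and Rab genes and single genes such as Txnip. The members just inside the limit were Cdk20 and Tmem218, each with a highest ratio of 0.548, and LOC115486031 with 0.549. Relt with 0.551 and Ppp1r26 with 0.553 lay just outside. All 142 members were among the 11281 genes that passed the filter on low counts, and their mean levels ran from 5.18 to 243 CPM, with a median of 14.3 CPM against 45.6 CPM for all genes at 5 CPM or more, a scale of reads that is not corrected for gene length. Scaling on library totals put the median tested gene 0.142 lower on the log2 scale in LPS than in CON. Scaling by TMM, which aligns the bulk of genes between libraries, left it at -0.00987, and with TMM-scaled totals the same rule took 91 genes, all of them among the 142.

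The study measured mRNA by RNA sequencing in 3 groups of 3 MH-S libraries, to relate the drug suramin to pyroptosis, an inflammatory form of lytic cell death. CON cells were given plain 1640 medium, and LPS cells 1 µg/ml LPS for 4 h. The SUR group is labelled suramin, and its protocol describes 200 µM suramin given with 1 µg/ml LPS over the same 4 h, so SUR is read here as suramin with LPS, although the sample labels name suramin alone. No group with suramin but without LPS was analysed here. All cells grew in serum-containing 1640 medium with mercaptoethanol, and no label says that the libraries of a group came from separate cultures, and so any p-value speaks only of the spread among these libraries, which could be technical. Library totals ran from 15729402 to 16675250 counts. Macrophage markers were present at like summed levels in the groups: 14 of 15 listed were in the table, and their summed level ranged from 5305 to 7617 CPM in CON, from 5122 to 7589 CPM in LPS and from 5174 to 7720 CPM in SUR. Lyz2 was the highest of these in every library, from 1671 CPM (LPS 1) to 3809 CPM (SUR 3), and was lowest in number 1 of each group. The sums therefore lean on this gene. Single markers did differ: every LPS library was above every CON library for Csf1r and Spi1, and below every CON library for Cd68. Among the listed markers the alveolar macrophage genes Siglecf, Marco, Chil3 and Pparg never passed 0.601 CPM in any library. Fabp4 and Itgax of the same list were detected, at 3.24 to 4.77 CPM and 6.92 to 12.5 CPM over all libraries. The summed level of listed markers of other cell types (epithelium, fibroblast and endothelium, lymphocyte and neutrophil) was at most 1.32 CPM in each. Libraries with the same number deviated from their group means together, most strongly those numbered 1 (correlations 0.701 to 0.801 across genes), so the counts below are also given without number 1.

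LPS is a component of the outer membrane of Gram-negative bacteria that macrophages sense through the receptor TLR4. The receptor signals through adaptors to NF-kappaB, MAP kinases and interferon regulatory factors, which raise cytokine, chemokine and interferon-stimulated genes. Alongside this induction, activated macrophages are known to lower many mRNAs, among them those of resting-state receptors and of transcription factors that set macrophage identity. Suramin, a polyanion, is known as an antagonist of purinergic receptors and of growth factor binding.

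The 142 members were low together in LPS and stood near their untreated level in SUR. Their summed level was 3973, 4249 and 4549 CPM in CON 1 to 3, 1762, 1772 and 1826 CPM in LPS and 3762, 3931 and 3886 CPM in SUR. The SUR sums lay far above every LPS sum and below every CON sum of their own number. In bulk libraries fewer cells that express a gene and less of its RNA per cell cannot be told apart. The median member ratio of LPS to CON, which the rule used, was 0.451, 0.409 and 0.410 in numbers 1, 2 and 3, where the median of all genes at 5 CPM or more was 0.919, 0.908 and 0.904. In edgeR's quasi-likelihood fit, which scales by TMM, the median member log2 fold change in LPS against CON was -1.10 (quartiles -1.39 and -0.92), and 136 members were called lower at an adjusted p under 0.05, where 9.36% of all tested genes were. The other 6, 9930111J21Rik1, Arhgap25, Nefh, Rin1, Rubcnl and Tlr8, were called with the replicate number as a block, where all 142 were (background 21.7%). The rule used these same 6 libraries and this contrast, so both counts restate how the members were chosen and are no test of them.

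**Figure D1:**
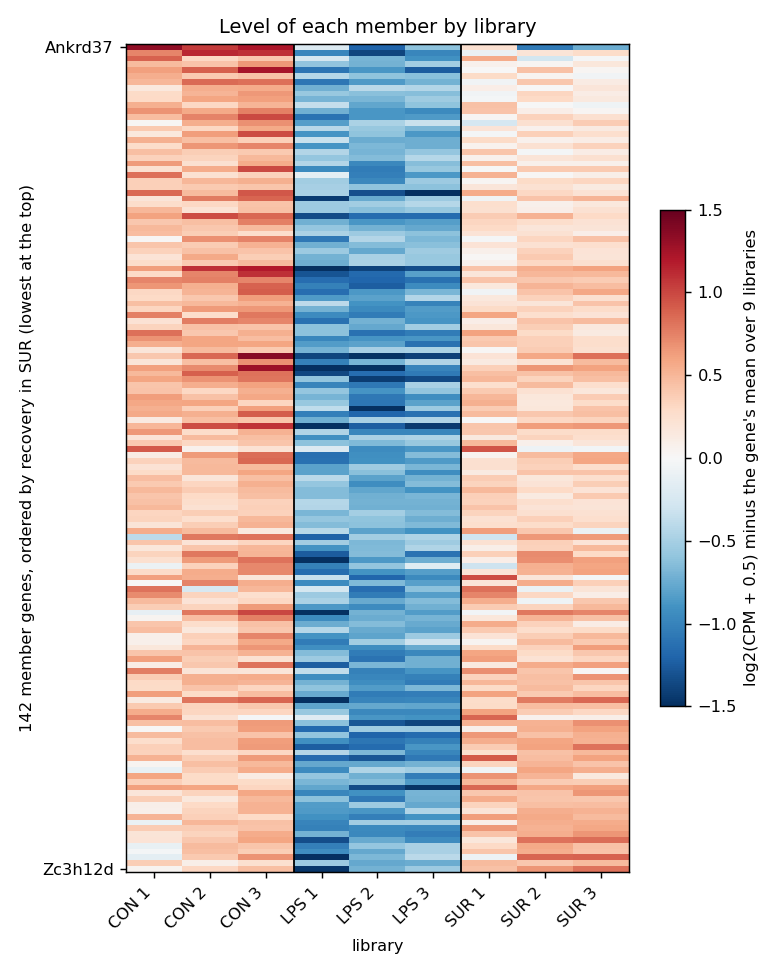
Level of each of the 142 members (rows) in each of the 9 libraries (columns), as log2(CPM + 0.5) minus the gene's mean over all libraries (colour scale, red higher, blue lower); rows run from the lowest recovery in SUR (Ankrd37, top) to the highest (Zc3h12d, bottom). LPS columns are blue for nearly all rows, with medians from -0.80 to -0.72, while the SUR columns have medians from 0.29 to 0.36 and the CON columns from 0.38 to 0.53.

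Against LPS, 132 of the 142 members rose in SUR (93%) and 0 fell, where 9.29% of all tested genes were called higher and 7.93% lower (quasi-likelihood test of edgeR, Benjamini-Hochberg adjusted over all tested genes). At an unadjusted p under 0.05, 141 were higher and 0 lower, where 16.1% and 13.8% of all tested genes were. Neither DESeq2 (134 higher) nor limma-voom (130 higher) called any member lower. The shares of all genes in these other fits are not given here. The median member log2 fold change was 1.05 (quartiles 0.81 and 1.26, range 0.10 to 2.21), against -0.01 over all tested genes. Every SUR library lay above every LPS library for 139 members, where 30% of tested genes did. With TMM-scaled levels these figures were 138 members and 17.8%. With the replicate number as a block, 141 members were called higher (background 22.6%). Without the libraries numbered 1 the count was 140, with no share of all genes given. The LPS libraries of this comparison are those the rule selected on, so the members' LPS levels were chosen to be low.

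Against CON, 0 members were called in either direction in SUR, where 0.39% of tested genes were called higher and 0.0355% lower. At an unadjusted p under 0.05, 24 members were lower and 1 was higher, where 2.99% and 6.24% of all tested genes were. DESeq2 called 5 members lower while limma-voom called 0, with no share of all genes given for these fits. Members leaned below CON: 108 had a negative log2 fold change and 34 a positive one, with a median of -0.11 against -0.01 over all tested genes. Every CON library lay above every SUR library for 28 members (background 6.87%), and the reverse held for 3, Natd1, Tmem140 and Zc3hav1l (background 8.11%). The replicate block changed the counts here. With the replicate number as a block, 30 members were called lower in SUR than in CON and 1, Zc3h12d, higher, where 4.18% and 7.37% of all tested genes were. Without the libraries numbered 1 the counts were 13 lower and 1 higher, with no share of all genes given. This comparison shares its CON libraries with the rule.

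**Figure D2:**
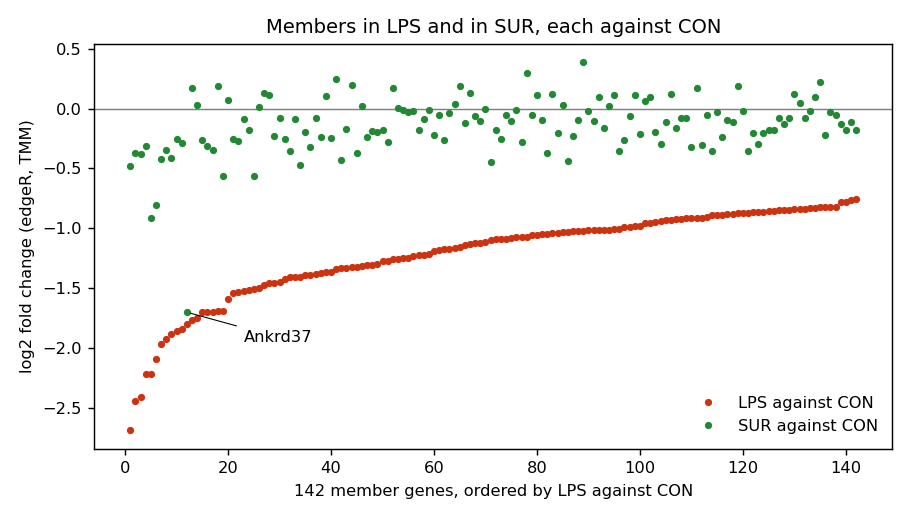
Fitted log2 fold change (edgeR, TMM) of each member in LPS against CON (red) and in SUR against CON (green), with members ordered along the horizontal axis by the first. The red points run from -2.69 to -0.76, the green points have a median of -0.11, and 3 green points, of Ankrd37, Vamp1 and Ier5l, lie below the highest red one, Ankrd37 the lowest at -1.70.

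Recovery was taken as the share of the log2 difference between CON and LPS that SUR regained, from group means of log2(CPM + 0.5), so that 100% marks the CON mean and 0% the LPS mean. The LPS and CON means enter both this share and the rule, and it was not tested. The median recovery over members was 0.888 (quartiles 0.810 and 0.995), written as a fraction. Of the 142 members, 141 had regained at least 0.5 of the difference, 124 at least 0.75, and 34 stood above their CON mean. The only member under 0.5 was Ankrd37, and 0 lay below the LPS mean. Within numbers 1, 2 and 3 the median was 0.938, 0.911 and 0.825.

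The ratio limit was also applied to only 2 of the replicate numbers at a time, and the genes taken were read in the number left out. The minimum of 5 CPM still used the mean over all 9 libraries, and no label says that the left-out libraries are independent of the others. Numbers 2 and 3 took 214 genes, of which 142 (66.4%) were also at or under 0.55 in number 1, where 2.9% of all genes at 5 CPM or more were. Leaving out numbers 2 and 3 in turn took 163 and 156 genes, of which 87.1% and 91% stood at or under the limit in the number left out (background 3.96% and 3.85%). In the libraries of the number left out SUR was above LPS for 213 of 214, 163 of 163 and 155 of 156 genes, where 70.7%, 70.6% and 70.7% of all genes were on the total-count scale. The median SUR to LPS ratio there was 1.99, 2.28 and 2.13, and the median recovery 0.959, 0.927 and 0.826 for numbers 1, 2 and 3.

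The transcription factors of the myeloid and blood lineages among the members included Lyl1, Cebpa and Hhex, and all 3 rose in SUR. Cebpa, which encodes C/EBP-alpha, a factor of myeloid commitment, stood at 53.5, 55.5 and 54.5 CPM in CON, 26.3, 29.8 and 27.1 CPM in LPS and 54.1, 50.7 and 50.1 CPM in SUR. It was 1.79-fold lower in LPS and rose 1.7-fold in SUR (adjusted p = 0.000277, quasi-likelihood test of edgeR, Benjamini-Hochberg adjusted, as in all such values here), and its SUR 1 library lay within the CON range. Hhex, a homeobox factor of blood and endothelial development, stood at 32.7, 43.5 and 41.2 CPM in CON, 8.73, 10.2 and 10.9 CPM in LPS and 31.9, 31.6 and 32.6 CPM in SUR. It had the largest difference of the 3, 3.58-fold lower in LPS, and rose 2.94-fold in SUR (log2 fold change 1.55 with SE 0.128 and adjusted p = 0.00021). Lyl1, a basic helix-loop-helix factor of blood progenitors, averaged 187 ± 18.8 CPM in CON, 89.1 ± 8.11 CPM in LPS and 173 ± 6.65 CPM in SUR (mean ± SD, n = 3 libraries), a rise of 1.77-fold over LPS (adjusted p = 0.00088). Lyl1 overlaps Nfix on the opposite strand, and whether the counting used strand is not given in the sources used here, so its count is uncertain. Of the 32 tested genes on the wider list of macrophage transcription factors, 6 were called higher and 6 lower in LPS than in CON. In SUR against LPS, 4 rose (12.5%) and 5 fell (15.6%), or 13 and 9 with the block, with a median log2 fold change of 0.07 against -0.01 over all tested genes. Of all tested genes 8.98% were called higher and 9.36% lower in LPS than in CON, and 9.29% rose and 7.93% fell in SUR against LPS (22.6% and 22.7% with the block), and the counts of this and the other wider lists, which hold the members too, stand beside these shares with no test of a list.

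**Figure D3:**
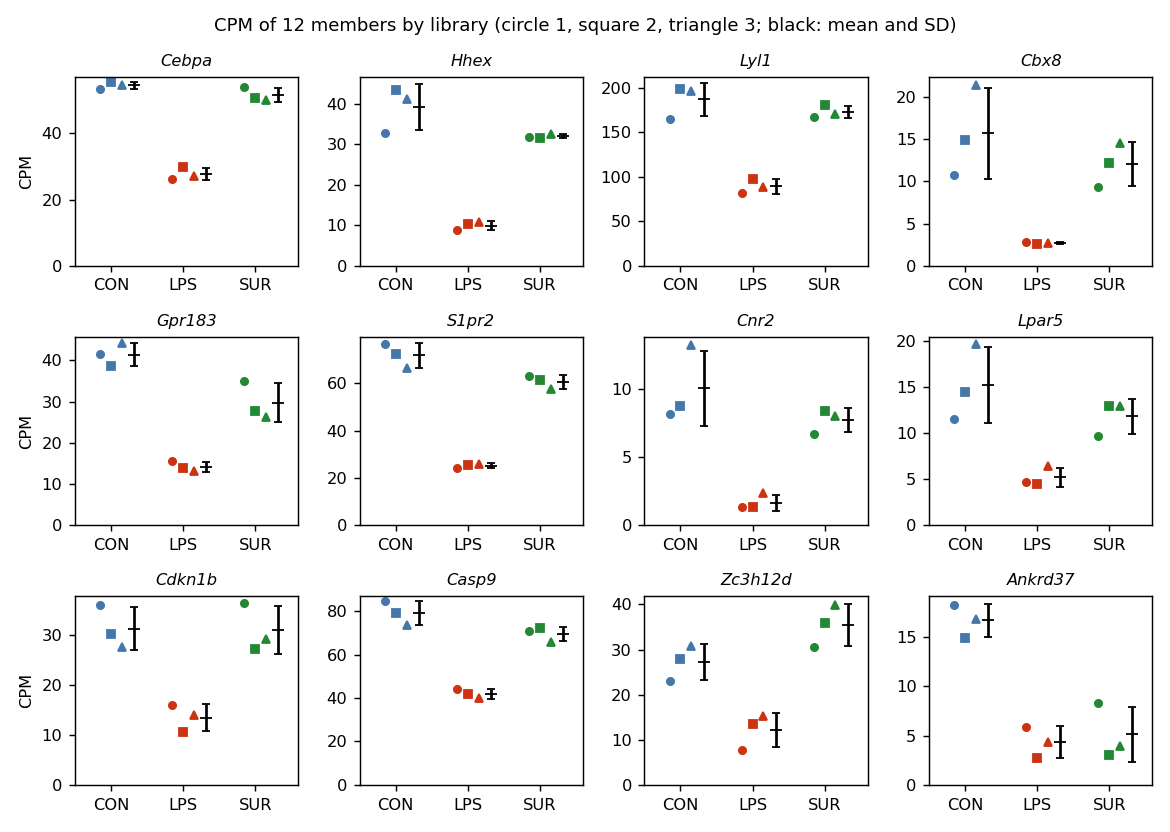
CPM of 12 members in each library (circle, square and triangle for numbers 1, 2 and 3), with mean and SD of the 3 libraries in black; each vertical axis starts at 0. In 11 panels every SUR point lies above every LPS point, and in the panel of Ankrd37 they overlap.

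G protein-coupled receptors made up 7 of the members. The deposited table annotates 49 genes at 5 CPM or more with that activity, so the class holds 4.93% of the members and 0.506% of all genes at that level. They bind lipid messengers, among other ligands. With Gna11, a G protein alpha subunit, all 8 genes of this group were low in LPS and 7 rose in SUR. Of all members 93% rose in SUR, and of all tested genes 9.29%. S1pr2, a receptor for sphingosine 1-phosphate, stood at 76.8, 72.4 and 66.4 CPM in CON, 24.1, 25.7 and 25.9 CPM in LPS and 63.1, 61.5 and 57.5 CPM in SUR. All 3 LPS libraries were far below the others, and the SUR libraries lay just under the CON libraries without overlap. The rise over LPS was 2.2-fold (log2 fold change 1.14 with SE 0.0768 and adjusted p = 9.08e-05), with a recovery of 83.8%. Gpr183, the receptor for oxysterols that guides immune cell migration, stood at 41.5, 38.5 and 44.1 CPM in CON, 15.5, 13.9 and 13.1 CPM in LPS and 35.1, 27.8 and 26.3 CPM in SUR. It rose 1.91-fold over LPS (adjusted p = 0.00108) and with the block was lower in SUR than in CON (log2 fold change -0.48, block adjusted p = 0.00437). Gpr183 lies within Ubac2 on the opposite strand, so its count is uncertain in the same way. Cnr2, which encodes the cannabinoid receptor CB2, was at 8.15, 8.75 and 13.2 CPM in CON, 1.32, 1.33 and 2.34 CPM in LPS and 6.73, 8.4 and 8.04 CPM in SUR. This was the largest difference of the group, 5.45-fold lower in LPS, and it rose 4.21-fold in SUR (log2 fold change 2.07 with SE 0.278 and adjusted p = 0.00144).

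Lpar5, a receptor for lysophosphatidic acid, stood at 11.6, 14.5 and 19.7 CPM in CON, 4.75, 4.45 and 6.42 CPM in LPS and 9.67, 12.9 and 12.9 CPM in SUR, so that number 1 was the lowest in CON and in SUR. It rose 2.08-fold (adjusted p = 0.0146), a call lost without LPS 2, SUR 2 or SUR 3 (adjusted p from 0.0553 to 0.0624). Gpr157, an orphan receptor, rose 2.16-fold (adjusted p = 0.0226), a call lost without LPS 2, LPS 3, SUR 1 or SUR 2 (adjusted p from 0.0647 to 0.0858). Of the members named for their function after their values were seen, Mrgpre, an orphan receptor of the MAS-related family, rose 2.19-fold (adjusted p = 0.00339) and Gna11 2.03-fold (adjusted p = 0.00126). Fzd7, a Wnt receptor, averaged 70.0 ± 16.4 CPM in CON, 32.1 ± 11.2 CPM in LPS and 58.2 ± 11.7 CPM in SUR (n = 3), and was not called in SUR against LPS (adjusted p = 0.0831) except under other settings such as the block (adjusted p = 9.1e-06). On the wider list of receptors and RGS regulators, with 51 tested genes, 15 were called higher and 9 lower in LPS than in CON. In SUR against LPS 10 rose (19.6%) and 8 fell (15.7%), or 17 and 12 with the block, with a median log2 fold change of 0.05.

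Promoter windows from RefSeq (GRCm38.p6, from 250 bases before to 50 after a gene's start) matched 120 of the 142 members, with 147 windows. The letters TGACGTCA, a palindrome known as the cAMP response element and therefore the same on both strands, were in 3.4% of member windows and 3.3% of all windows of genes at 5 CPM or more, near the same share. The upstream bases around it are shown for the 3 of its 5 member genes that are described by value here, S1pr2, Ormdl3 and Cbx8, each read 5′ to 3′ on its own strand, which is the minus strand in all 3, with the motif in capitals.
S1pr2: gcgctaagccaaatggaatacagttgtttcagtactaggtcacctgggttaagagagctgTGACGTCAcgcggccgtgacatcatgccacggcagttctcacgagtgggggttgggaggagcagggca
Ormdl3: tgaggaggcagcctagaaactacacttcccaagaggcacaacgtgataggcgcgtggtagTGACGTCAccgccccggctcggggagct
Cbx8: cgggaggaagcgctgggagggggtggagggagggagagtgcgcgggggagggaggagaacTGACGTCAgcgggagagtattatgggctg
The stretches lie at chr9:20976907-20977034, chr11:98587246-98587333 and chr11:119040914-119041002, and the motif begins 181, 28 and 29 bases before the annotated start. Shares of the other letters, searched on both strands, were low in both sets: CACGTG, the E-box, was in 8.84% of member windows and 10.7% of all, GTAAACA, a forkhead motif, in 1.36% and 2.49%, TTATGTAA, a motif of PAR bZIP factors, in 0% and 0.506%, and GAGGAAGT, a motif of the PU.1 type, in 4.76% and 3.27%. A match is a run of letters and no evidence of binding.

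Other DNA-binding factors and cofactors made up 17 members, and all 17 rose in SUR. Such a rise was called for 93% of all members and 9.29% of all tested genes. The rule chose low LPS levels, so a full count in this or another role group says nothing particular of its function. Irf2bp2, a corepressor that binds IRF2, stood at 95.7, 131 and 108 CPM in CON, 31.8, 48.2 and 35 CPM in LPS and 97.4, 125 and 93.4 CPM in SUR. Its LPS libraries were at or under 48.2 CPM and its SUR libraries overlapped the CON range, a rise of 2.5-fold over LPS (log2 fold change 1.32 with SE 0.191 and adjusted p = 0.00203) and a recovery of 94.2%. Sertad3, a cofactor with a SERTA domain, had closely spaced replicates, at 11.9, 12.2 and 12 CPM in CON, 2.89, 2.8 and 2.96 CPM in LPS and 9.61, 9.42 and 9.23 CPM in SUR. It was 3.79-fold lower in LPS and rose 2.98-fold in SUR (log2 fold change 1.57 with SE 0.1 and adjusted p = 7.9e-05), while every SUR library stayed below every CON library. Zkscan14, a KRAB and SCAN domain zinc finger, rose 3.05-fold (adjusted p = 0.000277). Ddit3, the stress-response factor CHOP, rose 1.57-fold (adjusted p = 0.00923) and regained 72.2%. It overlaps Mars and Mbd6, which both had more reads than Ddit3, so its count is uncertain. Among members named after their values were seen, Zbtb1, a zinc finger repressor of transcription, rose 3.04-fold (adjusted p = 0.000298) and Tfap4, a helix-loop-helix factor, 2.71-fold (adjusted p = 0.00203). Zbtb1 overlaps Zbtb25 on the opposite strand, which averaged 11.7 CPM beside 26.8 CPM for Zbtb1, so its count is uncertain. Tsc22d3, which encodes the glucocorticoid-induced leucine zipper GILZ, stood at 28.7, 54.7 and 63.1 CPM in CON, 9.99, 18.9 and 17.3 CPM in LPS and 30.5, 54.5 and 52.3 CPM in SUR. Within each group number 1 was the lowest, and its 2.71-fold rise (adjusted p = 0.0244) was lost without LPS 1, LPS 3, SUR 2 or SUR 3 (adjusted p from 0.0621 to 0.0923).

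Chromatin genes included Cbx8 and Cbx2, chromodomain subunits of Polycomb repressive complex 1. Cbx8, whose upstream bases are shown above, stood at 10.7, 14.9 and 21.4 CPM in CON, 2.77, 2.54 and 2.71 CPM in LPS and 9.31, 12.2 and 14.5 CPM in SUR. The LPS libraries were close to each other while the CON and SUR libraries each spread, with the lowest in number 1. It rose 4.09-fold over LPS (log2 fold change 2.03 with SE 0.275 and adjusted p = 0.0015). Cbx2 rose 2.31-fold (adjusted p = 0.00109) and averaged 11.4 ± 1.13 CPM in CON, 4.62 ± 0.846 CPM in LPS and 11.7 ± 1.28 CPM in SUR (n = 3). Prr12, a proline-rich nuclear protein, was at 74.2, 70.8 and 74.7 CPM in CON, 32.1, 32.9 and 32.5 CPM in LPS and 68.7, 77.9 and 76.8 CPM in SUR. Its SUR libraries enclosed the CON range, and the 2.09-fold rise had an adjusted p of 7.9e-05. Pwwp2b, a chromatin reader with a PWWP domain, regained 64.9%: it rose 1.93-fold over LPS (adjusted p = 0.00477) and with the block was lower in SUR than in CON (log2 fold change -0.57, block adjusted p = 0.000986). The list of Polycomb and histone methylation genes, with 55 tested, held 6 called higher and 9 lower in LPS than in CON. In SUR against LPS 9 rose (16.4%) and 4 fell (7.27%), or 21 and 11 with the block, with a median of 0.09.

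All 7 members with roles in immune recognition and signalling rose in SUR, where 93% of all members and 9.29% of all tested genes did. Cd300lb, an activating receptor of myeloid cells, stood at 79.6, 108 and 139 CPM in CON, 26.1, 28.4 and 36.6 CPM in LPS and 73.2, 91.2 and 90.4 CPM in SUR. LPS libraries were well below the rest, the SUR and CON ranges overlapped, and the rise was 2.55-fold (log2 fold change 1.35 with SE 0.21 and adjusted p = 0.00283). Themis2, a signalling scaffold of macrophages and B cells, rose 2.03-fold (adjusted p = 0.0146), a call lost without SUR 2 or SUR 3 (adjusted p 0.0617 and 0.0572). Sh3bp2, an adaptor of immune receptor signalling, rose 1.65-fold (adjusted p = 0.00665). Tlr8, an endosomal receptor for RNA, was at 8.51, 12.7 and 15.5 CPM in CON, 2.95, 5.79 and 7.09 CPM in LPS and 9.01, 17.8 and 18.1 CPM in SUR. Number 1 was the lowest library of each group. Its 2.58-fold rise had an adjusted p of 0.0391, lost under limma-voom (0.0578) and without any one of CON 2, the first 2 LPS libraries and the last 2 SUR libraries (adjusted p from 0.0628 to 0.132). Tifab, a regulator of TRAF6 signalling, rose 2.23-fold (adjusted p = 0.00678) and Irgm2, an interferon-inducible GTPase, 1.96-fold (adjusted p = 0.00562). Both were named after their values were seen. Irgm2 belongs to a family of related genes, and whether reads were shared among them was not checked, so its count is uncertain.

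Zc3h12d, an RNA-binding protein of the family of the mRNA-degrading endonuclease Regnase-1, had the highest recovery of all members, 132%. It stood at 23.1, 27.9 and 30.8 CPM in CON, 7.83, 13.5 and 15.2 CPM in LPS and 30.6, 35.9 and 39.9 CPM in SUR, rising in SUR above the CON library of its own number in all 3 pairs. The rise over LPS was 2.66-fold (log2 fold change 1.41 with SE 0.233 and adjusted p = 0.00379). Against CON its log2 fold change was 0.39, not called without the block and called with it (block adjusted p = 0.0196), where it was the only member called higher. Its SUR 1 library lay within the CON range.

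Adhesion and cytoskeletal members included 3 semaphorins, membrane ligands of plexin receptors. Sema4c stood at 26.8, 42.8 and 44.8 CPM in CON, 6.8, 12 and 12 CPM in LPS and 29.4, 42.1 and 44.5 CPM in SUR, 3.37-fold lower in LPS than in CON, and rose 3.43-fold in SUR (log2 fold change 1.78 with SE 0.283 and adjusted p = 0.00319). The SUR and CON libraries of the same number were close to each other, with number 1 lowest in both. Sema4b rose 3.01-fold (adjusted p = 0.00223) and Sema6b 1.72-fold (adjusted p = 0.00289), with recoveries of 115% and 90.2%. Of the 42 tested adhesion and integrin genes, 11 were called higher and 4 lower in LPS, and in SUR against LPS 5 rose (11.9%) and 8 fell (19%), or 11 and 12 with the block (median -0.01). Inka1, an inhibitor of the kinase PAK4, stood at 28.4, 36.9 and 34.1 CPM in CON, 6.98, 8.07 and 8.02 CPM in LPS and 24.3, 26.9 and 22.9 CPM in SUR. All SUR libraries lay between the LPS and the CON ranges, and the rise was 2.93-fold (log2 fold change 1.55 with SE 0.128 and adjusted p = 0.00021). Arhgap25, a GTPase-activating protein for Rac, was at 66.3, 46.5 and 39.3 CPM in CON, 34.8, 21.6 and 21.1 CPM in LPS and 73.1, 41.6 and 42.5 CPM in SUR. Number 1 was the highest in every group, and it was called in neither LPS against CON nor SUR against LPS (adjusted p = 0.0691 for the second), but was in both with the block (adjusted p = 2.13e-06 for the second).

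Cell cycle, replication and repair genes numbered 10, and all 10 rose in SUR, where 93% of members and 9.29% of tested genes did. Cdkn1b, which encodes the cyclin-dependent kinase inhibitor p27, stood at 35.9, 30.2 and 27.5 CPM in CON, 15.9, 10.6 and 13.9 CPM in LPS and 36.4, 27.2 and 29.2 CPM in SUR. LPS libraries were at or below 15.9 CPM, CON and SUR overlapped, and the rise was 2.1-fold (log2 fold change 1.07 with SE 0.17 and adjusted p = 0.00316). Fbxo5, the inhibitor Emi1 of the anaphase-promoting complex, rose 2.44-fold (adjusted p = 0.00377, named after its values were seen). Of 64 tested DNA repair and checkpoint genes, which include the member Palb2, a partner of BRCA2, 6 rose (9.38%) and 1 fell (1.56%) in SUR against LPS, or 15 and 10 with the block (median 0.03), so the share that rose was near the 9.29% of all tested genes. Among 35 tested genes of quiescence, which include Cdkn1b, 6 rose (17.1%) and 3 fell (8.57%), or 11 and 6 with the block (median 0.12).

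The caspase and cell death group held 3 members, Casp9, Casp2 and Casp8ap2, and all 3 rose. Of all members 93% rose, and of all tested genes 9.29%. Casp9, the initiator caspase of the mitochondrial pathway of apoptosis, was at 84.5, 79.3 and 73.5 CPM in CON, 44.1, 41.9 and 39.8 CPM in LPS and 70.9, 72.1 and 66 CPM in SUR. The groups did not overlap, and SUR lay between LPS and CON. The rise was 1.51-fold (log2 fold change 0.60 with SE 0.073 and adjusted p = 0.000949) and the recovery 80%. Casp2, an initiator caspase linked to genome damage, rose 1.81-fold (adjusted p = 0.00158), and Casp8ap2, a caspase-8 binding protein with a role in histone gene expression, 1.81-fold (adjusted p = 0.00878). Both were named after their values were seen.

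Substrate receptors and subunits of ubiquitin ligases numbered 6, and all 6 rose, where 93% of all members and 9.29% of all tested genes did. Klhl21, an adaptor of cullin 3 ligases, stood at 20.1, 17.3 and 21.7 CPM in CON, 9.87, 7.06 and 9.19 CPM in LPS and 22.9, 20.8 and 20.6 CPM in SUR, a rise of 2.24-fold (log2 fold change 1.17 with SE 0.135 and adjusted p = 0.000775), with SUR libraries overlapping the CON range. Kctd7, a BTB domain protein of the cullin 3 type, was at 8.87, 6.75 and 9.46 CPM in CON, 3.25, 1.59 and 1.29 CPM in LPS and 7.21, 5.98 and 5.58 CPM in SUR and rose 2.78-fold (adjusted p = 0.011). Kctd11, an adaptor that brings histone deacetylase 1 to cullin 3, also rose, 1.7-fold (adjusted p = 0.00213). Vhl, the von Hippel-Lindau subunit that recognises hypoxia-inducible factors, rose 1.7-fold (adjusted p = 0.00191, named after its values were seen). On the wider list of ubiquitin ligases, 18 of 78 tested were lower and 10 higher in LPS than in CON, and 22 rose (28.2%) and 7 fell (8.97%) in SUR against LPS, or 34 and 15 with the block (median 0.18).

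Metabolic enzymes and regulators, membrane traffic and autophagy genes, and mitochondrial and tRNA enzymes made up 31 members, of which 28 rose in SUR. Among all members the share that rose was 93%, and among all tested genes 9.29%. Pcyox1, which breaks down prenylcysteines, stood at 142, 119 and 129.6 CPM in CON, 74.5, 61.2 and 61.4 CPM in LPS and 137, 117 and 116 CPM in SUR, and rose 1.71-fold (adjusted p = 0.00126). CON and SUR overlapped, and the LPS libraries lay apart. Ormdl3, an inhibitor of serine palmitoyltransferase and thereby of sphingolipid synthesis, had an intermediate level in SUR, at 18.2, 17.6 and 20.7 CPM in CON, 8.43, 7.76 and 8.88 CPM in LPS and 13.6, 13.3 and 14.6 CPM in SUR. No group overlapped another. It rose 1.51-fold over LPS (log2 fold change 0.59 with SE 0.103 and adjusted p = 0.0047), regained 61.8%, and with the block was lower in SUR than in CON (log2 fold change -0.44, block adjusted p = 0.00335). Its paralogue Ormdl1 rose 1.69-fold (adjusted p = 0.0013). Mrm1 and Mrm2, which methylate mitochondrial ribosomal RNA, rose 2.33-fold (adjusted p = 0.00119) and 1.93-fold (adjusted p = 0.00562), and Mrm2 overlaps Nudt1 on the opposite strand. Gorasp1, a Golgi stacking protein, rose 1.71-fold (adjusted p = 0.000271). Gorasp1 overlaps Wdr48 on the opposite strand, which had more reads (68.1 against 33.4 CPM), so its count is uncertain. Ormdl1, Mrm1, Mrm2 and Gorasp1 were named after their values were seen.

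Among the 10 members with annotated names that were lowest in LPS against CON, beside Cnr2, Cbx8, Inka1, Sertad3, Kctd7, Zkscan14 and Hhex above, were AI467606, Vamp1 and Ier5l. AI467606, an uncharacterised gene, stood at 33.7, 47 and 50.8 CPM in CON, 7.52, 9.73 and 8.45 CPM in LPS and 31.8, 36.7 and 37.3 CPM in SUR and rose 3.75-fold (log2 fold change 1.91 with SE 0.172 and adjusted p = 0.000277). Vamp1, a vesicle SNARE of membrane fusion, was at 8.27, 11.1 and 10.7 CPM in CON, 2.17, 1.53 and 2.16 CPM in LPS and 4.45, 5.5 and 5.88 CPM in SUR. Its SUR libraries were all above LPS and all below CON. It rose 2.46-fold over LPS (adjusted p = 0.00297) with a recovery of 59%, and its log2 fold change against CON was -0.92 (block adjusted p = 0.00181). Ier5l, a relative of the immediate early gene Ier5, rose 2.44-fold (adjusted p = 0.00554) and regained 62%.

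Ankrd37, an ankyrin repeat gene known as a target of hypoxia-inducible factor, was the exception to recovery. It stood at 18.2, 14.9 and 16.8 CPM in CON, 5.9, 2.73 and 4.38 CPM in LPS and 8.29, 3.08 and 3.96 CPM in SUR. The SUR 2 and SUR 3 libraries lay inside the LPS range, and SUR 1 was the highest of the 3. In SUR against LPS its log2 fold change was 0.10 (SE 0.372, adjusted p = 0.905), and this sign turned without SUR 1 (-0.44). Against CON it was -1.70, not called without the block (adjusted p = 0.112) and called lower with it (block adjusted p = 0.000466). Its recovery was 8.43%. Ankrd37, at chr8:45996908-46000414 (RefSeq, GRCm38.p6), overlaps Ufsp2 on the opposite strand, which had more reads, so reads of the pair may be mixed. The other 9 members not called in SUR against LPS, named because they missed the threshold, were Ppp1r3b, Tmem81, Map11, Fzd7, Rubcnl, Rin1, Nefh, 9930111J21Rik1 and Arhgap25, and with the block all 9 were called higher.

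Low recoveries among members at 10 CPM or more were, beside Gpr183, Pwwp2b, Ddit3 and Ormdl3, those of Sh2d3c, an adaptor of cell adhesion signalling (67.6%), Atg9b, a lipid scramblase of autophagy (67.8%), Hgh1, a chaperone of elongation factor 2 (68%), Map11 (69.8%) and Osgin1, an oxidative stress gene (71.3%). With the block each of these was called lower in SUR than in CON. The calls of Hgh1, Osgin1 and Sh2d3c in SUR against LPS were lost when single libraries were left out, Hgh1 without LPS 2, LPS 3, SUR 1 or SUR 2, Osgin1 without LPS 1, LPS 3, SUR 2 or SUR 3, and Sh2d3c without SUR 2, with adjusted p-values from 0.0541 to 0.105. The highest recoveries at that level, beside Zc3h12d, Tlr8, Sema4b and Klhl21, were those of Natd1 (124%), Stoml1, a stomatin family membrane protein (120%), Zbtb34, a zinc finger repressor (115%), Zc3hav1l, a relative of the zinc finger antiviral protein (114%), Iffo1, an intermediate filament family protein (113%) and N4bp3 (112%). Natd1 stood at 19.6, 16.1 and 17.9 CPM in CON, 10.1, 8.65 and 8.76 CPM in LPS and 21.1, 20.1 and 21.1 CPM in SUR, so that every SUR library was above every CON library. Its log2 fold change against CON was 0.22 and was not called, with or without the block (block adjusted p = 0.069).

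Gene structure, which the rule did not use, differed between the members and other genes. Gene models of GENCODE M21 matched 140 of the 142 members. The median member had 4 exons in the transcript with the longest coding sequence and spanned 9900 bp, where the median gene at 5 CPM or more had 9 exons and spanned 22630 bp. At most 2 exons were found in 38 members (27.1%) and in 5.37% of the other set, and 11 members (7.86% against 1.53%) had 1 exon. Members had fewer reads than most genes, and among genes from 5 to 50 CPM, a comparison chosen after seeing the data, the medians were 8 exons and 20180 bp, with 7.26% at 2 exons or fewer. The median length of the mature mRNA was close, 3119 nt for members and 3014 nt for all, with 2787 nt for genes from 5 to 50 CPM. Its parts differed: the median coding sequence was shorter in members (1168 against 1404 nt for all) and the median 3′ untranslated region longer (1359 against 987 nt). Read the other way, 7.48% of genes with 1 exon were members, 3.5% of those with 3 to 4, 0.804% of those with 9 to 16 and 0.0957% of those with 17 or more.

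**Figure D4:**
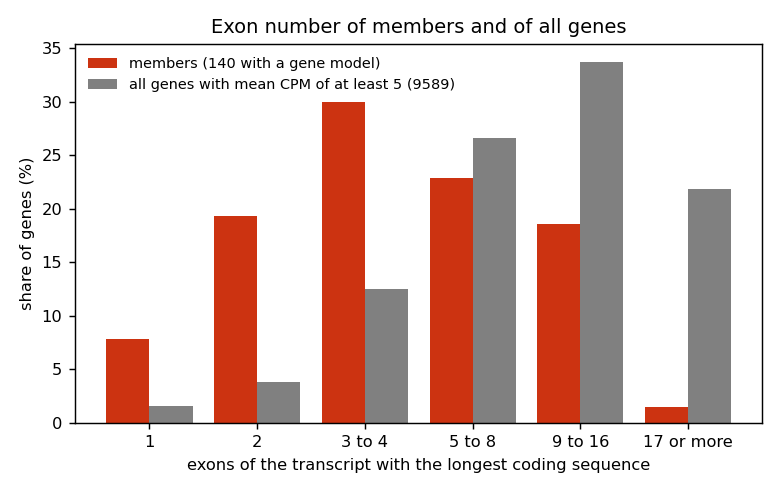
Share of genes (vertical axis, percent) by number of exons of the transcript with the longest coding sequence, for the 140 members with a gene model (red) and the 9589 genes with a mean of at least 5 CPM and a gene model (grey). Members exceed the other genes at 1, 2 and 3 to 4 exons (7.86%, 19.3% and 30%, against 1.53%, 3.84% and 12.5%) and fall short at 17 or more (1.43% against 21.8%).

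Overlapping genes limit some of these values. By RefSeq positions 26 members overlap another gene of the table, 18 of them on the opposite strand, and for 19 of the 26 the other gene also had at least 5 CPM. Irgm2, 9930111J21Rik1, Gm14326, Gm46430 and LOC115486031 belong to families or models whose reads could be split among related genes, which was not checked. They were counted among the members without being weighed singly.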

How the data were processed

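RNA sequencing gave 1 deposited table of 14771 genes for 9 libraries of MH-S cells, 3 per group. Per the labels' protocols, RNA was extracted with Trizol and libraries were made with the MGIEasy kit. Reads were aligned by the authors with HISAT2 2.0.4 to GRCm38 (mm10), as the submitters' processing notes list them. Counting tool, strand setting and annotation: not given in the sources used here. Expected counts were deposited without normalization, as the file headers and the values show. Of these values 93.4% were whole (no remainder), and all were rounded before testing. The authors' deposited FPKM values, scaled for length and depth per the file headers, served in alternatives only. The deposited TPM values, per the file headers, served only to check column sums (999999 to 1000001).

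CPM was computed from column totals. Genes were tested in R 4.3.3 with the quasi-likelihood F test of edgeR 4.0.16 after filterByExpr and TMM (factors 0.934 to 1.04), with all 9 libraries in 1 fit, no covariate, and Benjamini-Hochberg adjustment over 11281 tested genes at 0.05. The fit was also run on simulated counts that held no effect of replicate number, and its outcome there is not given here. Each standard error (SE) of a log2 fold change comes from its F statistic. Alternatives were RLE and upper-quartile scaling, no filter, DESeq2 1.42.0, limma-voom (limma 3.58.1), limma on log2(FPKM + 0.1) and log2(FPKM + 1), the replicate number as a block, and leaving out libraries. Replicate numbers are shared between groups by the labels. Deviations of same-numbered libraries from their group means correlated at 0.435 to 0.801 over all tested genes. The numbers were therefore taken to pair the libraries, and values with the block are given where they change a call. Deviations cancel within a group, so a shared shift of the libraries numbered 1 could alone make the other numbers correlate. Whether those are pairs was not tested.

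The members, the gene lists and the role groups were chosen with earlier results of these data known. Genes named by rule were members of the lists, the 10 lowest in LPS against CON, the 10 highest in mean CPM, and the 10 highest and 10 lowest in recovery at a mean of at least 10 CPM, leaving out predicted models, and genes at the edge of the ratio limit. Others are marked as named after their values were seen. A few results are not reported here.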

Additional observations from a re-analysis of the deposited data

How the results depend on the processing

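Over the 18 alternatives run for each fit, the count of members called higher in SUR against LPS stayed within 1.5 times, with 0 called lower. It was 115 (without SUR 2) to 133 when 1 library was left out. The rule, on the same libraries, fixed the direction in LPS against CON and chose low LPS levels for SUR against LPS, so neither direction is a sign of stability. Leaving out 1 library gave 125 to 138 members called lower in LPS against CON. In SUR against CON the counts did change. With the replicate block they were 30 lower and 1 higher, where 4.18% and 7.37% of all tested genes were. Without the block those shares were 0.0355% and 0.39%, so the block raised the calls of all genes too. DESeq2 gave 5 lower and 0 higher, and leaving out the libraries numbered 1 gave 13 lower and 1 higher. When 1 library was left out, 0 to 1 were lower (1 without CON 1 and 1 without SUR 1). Shares of all tested genes are not given for alternatives other than the block. The block moved no other count of members by over 1.5 times.

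The number of members depended on the scale and the limit: 91 with TMM-scaled totals, 89 at a ratio of 0.50, 219 at 0.60, and 156 to 214 when 1 replicate number was left out (214 without number 1). The median recovery was 0.825 within number 3, and 0.959 and 0.826 for genes chosen on the other numbers and read in numbers 1 and 3; leaving out 1 library gave 0.856 to 0.918. Signs turned, in values that were not called, for Ankrd37 in SUR against LPS without LPS 2 (-0.14), without SUR 1 (-0.44) and without the libraries numbered 1 (-0.16), with a range of -0.44 to 0.38 over single libraries left out, and for Iffo1 in SUR against CON without CON 1 (-0.05, range -0.05 to 0.27). Of the genes named, 9 lost their call in SUR against LPS when some single library was left out. The cause of these changes was not tested.

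With 3 libraries per group, the median standard error of members in SUR against CON was 0.1505 on the log2 scale. Small differences between SUR and CON were therefore not detectable without the block.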

Other observations

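In the deposited table's gene ontology annotation, 37 of the 142 members (26.1%) carry only or also the root term for molecular function, against 13.2% of genes at 5 CPM or more, and 27 (19%) the root term for biological process, against 8.94%. Genes with the root term for molecular function include Prr12, Tmem140, Zc3hav1l and AI467606, and also genes whose roles are given above, such as Ormdl3 and Atg9b, so the term does not mark a gene without known function. Annotated transcription factors were 17 members (12%, against 7.68%), after the numbered Zfp and Klf genes had been left out by name, and transcription cofactors 8 (5.63%, against 8.23%). These shares were not tested. The member promoter windows had a median GC content of 60.7%, beside 61% for genes at 5 CPM or more.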
